A study of Homo sapiens with 4 samples.

Results

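MIR221 and MIR222 are neighbouring microRNA genes on the X chromosome that are cut from 1 primary transcript. They are 2 of the 34675 gene rows in the authors' comparison of MDA-MB-231 cells with and without added LKB1. The MDA-MB-231 line was established from the pleural effusion of a triple-negative breast carcinoma. One stable line carried pcDNA with FLAG-tagged wildtype LKB1, the kinase encoded by STK11, and the other carried the empty pcDNA vector. There were 2 libraries of total RNA from each line, grown in serum-containing medium on plastic; whether a line was 1 clone or a pool, and whether its libraries were separate cultures, is not given in the labels. The rows were selected by gene name, with their large fold in this same comparison already known, so their own folds and p-values are given as a description and not as a finding.

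A microRNA is made from a hairpin that the nuclear enzyme DROSHA cuts out of a primary transcript and that DICER1 then cuts to a short duplex. One strand is loaded into an Argonaute protein and pairs, mainly through the seed at bases 2 to 8, with the 3′ untranslated regions (3′ UTRs) of messenger RNAs, which it represses. MiR-221 and miR-222 are known for repressing the cell cycle inhibitor CDKN1B and the receptor KIT, and for high levels in triple-negative breast cancer lines, endothelial cells and smooth muscle.

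The mature sequences are shown because their seed, in capitals, is what the search for target sites below rests on. They are RefSeq entries of build GRCh38.p14, minus strand of the X chromosome, written 5′ to 3′.
hsa-miR-221-3p: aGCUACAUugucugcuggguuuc
hsa-miR-222-3p: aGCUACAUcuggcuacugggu
hsa-miR-222-5p: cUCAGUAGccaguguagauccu
The first 8 bases of miR-221-3p and miR-222-3p were identical, and without gaps 11 of the 21 positions they share in length were equal. Among 2545 mature human sequences in that RefSeq table, these were the 2 that carried this seed, so within that table the seed family is this pair alone. The strand from the other arm of MIR222 has a different seed.

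The hairpins are shown because the rows of the table have their names and length; capitals mark the mature strands above.
MIR221 hairpin: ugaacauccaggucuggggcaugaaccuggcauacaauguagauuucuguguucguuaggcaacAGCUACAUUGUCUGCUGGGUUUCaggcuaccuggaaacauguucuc
MIR222 hairpin: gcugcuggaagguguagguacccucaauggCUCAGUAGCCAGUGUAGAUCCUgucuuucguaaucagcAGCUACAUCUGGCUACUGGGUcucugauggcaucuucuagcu
Each hairpin was 110 bases long. Their GC content was 47.3% for MIR221 and 50.9% for MIR222, and RNAfold gave minimum free energies of -46.5 and -53.8 kcal per mol for MIR221 and MIR222. A global alignment matched 76 of 124 columns (61.3%). With equal lengths, no correction for length is needed when the reads of the 2 genes are compared. Other differences between the 2 genes that may alter their reads were not measured.

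In the table, MIR221 (ENSG00000207870.1) lies at 45605585 to 45605694 and MIR222 (ENSG00000207725.1) at 45606421 to 45606530 on the minus strand of the X chromosome in hg19, with 726 bases between them. Both are annotated as miRNA genes, and neither lies inside a longer row of the same strand. Their host transcript in GENCODE 29, MIR222HG, was not analysed here under that name. A row whose present symbol is also listed as its synonym is given with the neighbours below.

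The deposited table holds 1 comparison and no value per library, so reads below are sums for each line (2 libraries together), worked out from the fold column. The LKB1 line was sequenced 1.04 times as deeply as the vector line. MIR221 had 416 reads in the LKB1 line and 3 in the vector line. MIR222 had 211 reads in the LKB1 line and 9 in the vector line. Reads on both hairpin genes were many in the LKB1 line and close to the limit of counting in the vector line. Per depth, the ratio of LKB1 to vector was 133 for MIR221, with an exact (Clopper-Pearson) 95% interval of 45.3 to 649, and 22.5 for MIR222, with an interval of 11.7 to 50.0. These intervals cover counting error only and leave out the spread between libraries. They may be too narrow even for counting error, since PCR copies are not independent molecules. In the authors' deposited table, where a small prior count pulls the fold of low totals towards 1, MIR221 was 123-fold higher in the LKB1 line (log2 6.95, adjusted p = 9.19e-55). For MIR222 the authors' deposited table gave a 22.0-fold higher value in the LKB1 line (log2 4.46, adjusted p = 5.44e-22). By fold, MIR221 ranked 4 and MIR222 ranked 87 among all rows of the table, and by p they ranked 13 and 69. Over the whole table, 5.79% of rows had an adjusted p under 0.05, with 2.55% higher and 3.24% lower in the LKB1 line; since the pair was chosen with these values known, nothing is read from its calls.

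**Figure D1:**
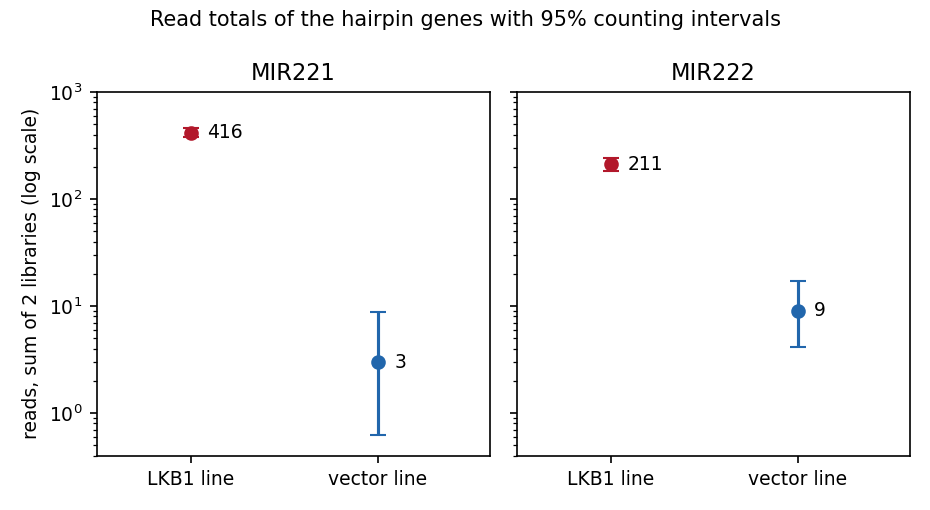
Read totals of MIR221 and MIR222 on a log axis, as the sum of 2 libraries, in the LKB1 line (left in each panel) and the vector line; bars are exact 95% Poisson intervals. MIR221 had 416 reads in the LKB1 line and 3 in the vector line. MIR222 had 211 in the LKB1 line and 9 in the vector line. The pair was chosen with these values known.

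The share of MIR221 in the pair is given as a description, since the pair was chosen with its values known. In the LKB1 line MIR221 had 1.97 reads for each read of MIR222, and it made up 66.3% of the 627 reads of the pair (exact interval 62.5 to 70.0). In the vector line MIR221 made up 25% of the 12 reads, with an interval of 5.49 to 57.2. These intervals cover counting error only, and the vector interval, from 12 reads, leaves the order of the pair in that line undetermined. Taken as a pair, the reads on the hairpin genes had a ratio of 50.3 between the LKB1 and the vector line (interval 28.6 to 97.8).

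Ranked per length among the 595 named microRNA genes of the table, MIR221 stood at 6 in the LKB1 line with 3782 reads per kb and at 101 in the vector line with 27.3 reads per kb. MIR222 stood at 13 in the LKB1 line with 1918 reads per kb and at 62 in the vector line with 81.8 reads per kb. The pair held 4.48% of all reads on named microRNA genes in the LKB1 line (13998 reads) and 0.0855% in the vector line (14027 reads). The 4 microRNA genes with the most reads, MIR3687, MIR663A, MIR3648 and MIR663B, held 8515 of these reads in the LKB1 line and 11171 in the vector line, and without them the share of the pair was 11.4% in the LKB1 line and 0.420% in the vector line. Such totals do not tell mature microRNAs from hairpins or from pieces of the primary transcript. In bulk RNA, fewer cells that express a gene and less RNA per cell cannot be told apart either.

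The spread between libraries could not be measured. What can be read from a p-value is the spread that the test would have used for that gene. That spread may draw on other genes, so it is no measure of how the libraries of the pair differed. Under an exact negative binomial test, assumed here because the test behind the deposited p is not named, the p-value of MIR221 implied a coefficient of variation between libraries of 0.129, against a median of 0.118 for 283 called protein-coding genes of like read totals. For MIR222 it was 0.170, against a median of 0.138 over 239 such genes. Genes that were called have a low spread by selection, so these medians are no measure of the spread of all genes.

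Several facts about the libraries stand beside these values. The titles of both LKB1 libraries carry the tag fmRNA where the vector titles have mRNA, and 1 LKB1 library bears another run tag than the remaining 3. The tags cannot be told apart from the plasmid with the values at hand. STK11, the added gene, had 2112 reads in the LKB1 line and 1321 in the vector line, so the vector line expressed it too. It was 1.54-fold higher in the LKB1 line, with a log2 fold of 0.62 (adjusted p = 0.00105, from the authors' deposited table). The direction of the comparison was read from this gene, so it is no separate check of the labels. In a test for sample mix-ups, 1 of the 2 groups failed to match the named line, which touches every difference given here. CDKN2A, known to be deleted in MDA-MB-231, had 3 reads in the LKB1 line and 32 in the vector line, and CDKN2B had 0 in each. The markers VIM, CD44, EGFR, CAV1 and MSN, known to be high in the line, lay between -0.55 and 0.64 on the log2 fold scale in the authors' deposited table.

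Other microRNA genes were higher in the LKB1 line as well. Of the 593 other named microRNA genes, 32 rose and 3 fell in the authors' deposited table, beside 2.55% and 3.24% of all rows. For 271 of the 593 there was no read at all. The median log2 fold of the 42 others with at least 40 reads was 0.25, beside -0.02 for all 14387 rows of that depth. In that group the largest folds were those of MIR127, MIRLET7C, MIR191 and MIR99B. MIR127 had 46 reads in the LKB1 line and 0 in the vector line, at least 14.7-fold higher when set against 3 reads over the vector line. MIRLET7C had 288 reads in the LKB1 line and 2 in the vector line, a ratio of 138 with an interval of 38.0 to 1149. MIR191 had 145 reads in the LKB1 line and 1 in the vector line (ratio 139, interval 24.6 to 5546). MIR99B had 243 reads in the LKB1 line and 3 in the vector line (ratio 77.9, interval 26.3 to 380). The fold of MIR221 thus lay within the range of microRNA genes with other seeds on other chromosomes.

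The split that follows was chosen after the values were seen and has no test: microRNAs numbered under 500 or named let-7, which were described early, against later numbers. In the first class, which MIR221 and MIR222 belong to by name, 28 of 207 others rose and 0 fell in the authors' deposited table. Among all rows 2.55% rose and 3.24% fell. At an unadjusted p under 0.05, 32 of the 207 others rose and 0 fell. Their reads summed to 2398 in the LKB1 line and 455 in the vector line. Of the 386 with later numbers, 4 rose and 3 fell in the authors' deposited table, and their reads summed to 10973 in the LKB1 line and 13560 in the vector line. That difference lay in the 4 genes with the most reads named above; the other 382 summed to 2458 reads in the LKB1 line and 2389 in the vector line. At the low end of genes with at least 40 reads, MIR4737 had 13 reads in the LKB1 line and 51 in the vector line, and MIR639 had 11 reads in the LKB1 line and 38 in the vector line; both fell. MIR3917 had 19 reads in the LKB1 line and 41 in the vector line (adjusted p = 0.184, from the authors' deposited table). MIR663B had a log2 fold of -0.54 (adjusted p = 0.0769, from the authors' deposited table). Of the 26 others of the first class with at least 20 reads, 20 rose in the authors' deposited table. Let-7b was among those that did not, with 249 reads of MIRLET7B in the LKB1 line and 240 in the vector line.

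**Figure D2:**
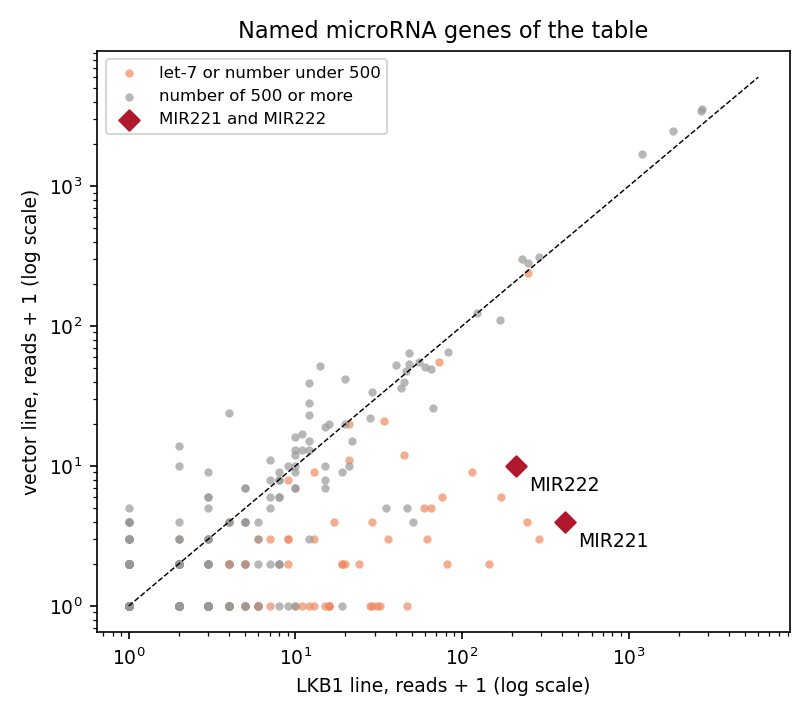
Reads plus 1 of the 595 named microRNA genes, with the LKB1 line on the x axis and the vector line on the y axis, both log scales; the dashed line marks equal reads. MIR221 and MIR222 (diamonds) lie far to the right of the line with many genes numbered under 500, whose reads sum to 2398 in the LKB1 line and 455 in the vector line.

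Where a microRNA lies inside a longer gene, the table allows the hairpin to be set beside its host. Of the other microRNA genes with at least 40 reads, 28 lay inside a longer row of the same strand, and 15 of these had a higher log2 fold than their host. Their median log2 fold was 0.06, beside 0.02 for their hosts counted once per hairpin, in the authors' deposited table. Of the 28, 7 rose and 0 fell. Among all 42 other microRNA genes of that depth 14 rose and 2 fell, and among all rows 2.55% and 3.24%. With no minimum beyond 1 read, 156 of 254 such genes stood above their host. Over all depths, 18 of the 32 microRNA genes that rose had a host. They were picked by their own rise, so that they stand above it is no finding. Their 16 host rows had a median log2 fold of 0.54, and 6 of these hosts rose and 0 fell in the authors' deposited table. Hosts near 0 were also present. MIR15B had 61 reads in the LKB1 line and 2 in the vector line. Its host SMC4, a condensin gene, did not pass and had a log2 fold of -0.02 (adjusted p = 1, from the authors' deposited table). MIR140 had 15 reads in the LKB1 line and 0 in the vector line inside WWP2, a ubiquitin ligase gene with a log2 fold of -0.03 (adjusted p = 1, from the authors' deposited table). No longer row of the same strand encloses MIR221 and MIR222, so they have no such host row to compare.

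Neighbouring microRNA genes also had unequal folds. MIR221 and MIR222 differed by 2.49 on the log2 fold scale. Of 16 other neighbouring pairs on 1 strand within 10 kb and with at least 1 member called, both members were called in 5, each time higher in the LKB1 line. The log2 folds within these 5 pairs differed by 0.14 to 2.45. MIR99B and MIRLET7E stood at 6.17 and 3.72 and were the most unequal; MIRLET7E and MIR125A, at 3.72 and 3.86 in the authors' deposited table, the least. In the other 11 pairs 1 member was called and its neighbour was not, as with MIR191 beside MIR425, the second of which had 4 reads in the LKB1 line and 1 in the vector line. Over this single comparison, the called rows with the log2 fold nearest to MIR221 were MIRLET7C (6.95), MIR100 (6.94) and MIR27A (6.89). Those nearest to MIR222 were the pseudogene RP11-247I13.3 (4.59), MIR15B (4.71) and MIR34A (4.17), all in the authors' deposited table. MIR100 and MIR27A had 31 and 30 reads in the LKB1 line and 0 in the vector line, so their log2 folds depend on the prior count.

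Around the pair, genes of the X chromosome were also higher in the LKB1 line, by much less. Of 21 rows within 1 Mb, 3 rose and 0 fell in the authors' deposited table (4 and 0 at an unadjusted p under 0.05), beside 2.55% higher and 3.24% lower among all rows. SLC9A7, a sodium/proton exchanger of the Golgi, had 941 reads in the LKB1 line and 455 in the vector line (log2 0.99, adjusted p = 1.13e-07, from the authors' deposited table). KDM6A, a histone H3 lysine demethylase, had 670 reads in the LKB1 line and 335 in the vector line (log2 0.94, adjusted p = 1.58e-05, from the authors' deposited table). The non-coding gene ENSG00000231566.1 (45707328 to 45710920, minus strand, hg19) lies 101 kb upstream on the same strand, and it had 52 reads in the LKB1 line and 18 in the vector line (log2 1.46, adjusted p = 0.0477, from the authors' deposited table). Its symbol is now LINC02595, which RefSeq lists both as a gene of its own and as a synonym of MIR222HG, the host transcript. Within 100 kb the one row besides the pair was the pseudogene RP6-99M1.1, with 1 read in the LKB1 line and 0 in the vector line. With a coefficient of variation of 0.3 assumed for every row, a setting added once the values were known, the exact test called 0 of the 21 neighbours (4 at an unadjusted p under 0.05).

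Over a wider window, 49 rows with at least 200 reads lay within 5 Mb of the pair, of which 34 rose and 1 fell in the authors' deposited table, with a median log2 fold of 0.73. The other 287 such rows of the X chromosome had a median of -0.03, with 48 higher and 21 lower. The 10911 such rows of other chromosomes had a median of -0.01 in the authors' deposited table, with 614 higher and 634 lower. The highest log2 fold among the 49 was 1.38, so MIR221 at 6.95 and MIR222 at 4.46 stood well above the shift of their surroundings. The part of this shift in the difference of MIR221 and MIR222 was not tested.

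**Figure D3:**
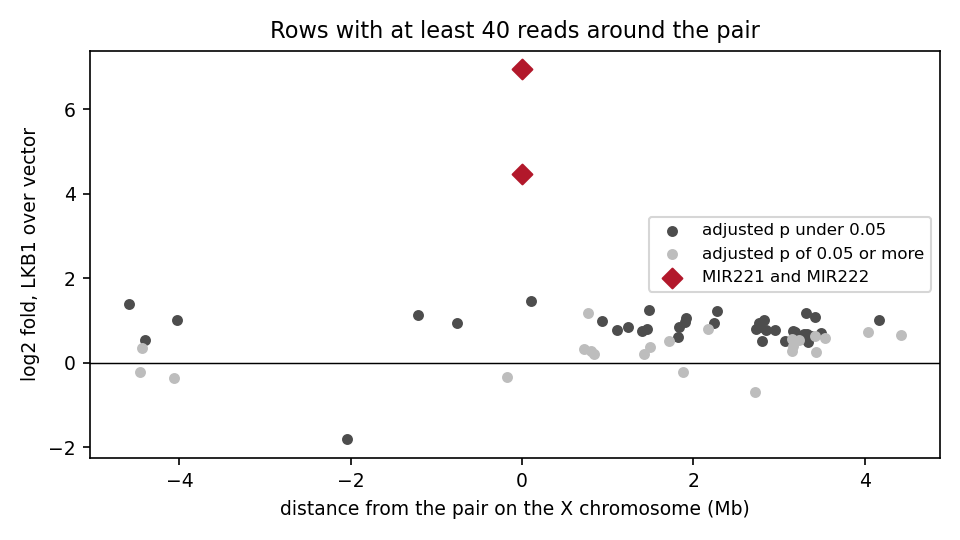
Log2 fold of LKB1 over vector against distance from the pair, in Mb, for rows of the X chromosome with at least 40 reads; dark points passed an adjusted p under 0.05. Most neighbours sit between 0 and 1.5, and MIR221 and MIR222 (diamonds) sit at 6.95 and 4.46.

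Of 27 listed genes that make or act with microRNAs, 2 rose and 1 fell in the authors' deposited table, beside 2.55% and 3.24% of all rows. All rows include 6433 without reads, while most of the 27 were deeply read. Of the 10911 rows of other chromosomes with at least 200 reads, 614 rose and 634 fell. The helicase DDX17, a cofactor of DROSHA, had a log2 fold of 0.55 (adjusted p = 0.00329) and TNRC6C, a silencing partner of Argonaute, one of 0.56 (adjusted p = 0.039), from the authors' deposited table. EIF2C2, the gene of Argonaute 2, had one of -0.51 (adjusted p = 0.0235, from the authors' deposited table). DROSHA was at 0.22 (adjusted p = 0.776), its partner DGCR8 at -0.17 (adjusted p = 1) and DICER1 at 0.40 (adjusted p = 0.11), from the authors' deposited table. Their median was -0.04, beside -0.02 for all rows with at least 40 reads. At an assumed coefficient of variation of 0.3, 0 of the 27 were called by the exact test, and 0 had an unadjusted p under 0.05.

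Of 13 measured genes for factors described as acting on transcription of the pair, 1 fell and 0 rose in the authors' deposited table (3 and 2 at an unadjusted p under 0.05). With 5.79% of all rows called, 1 of 13 is near the background. EGR1, an early response factor, had 105 reads in the LKB1 line and 438 in the vector line (log2 -2.11, adjusted p = 1.25e-19, from the authors' deposited table). The AP-1 gene FOS had 25 reads in the LKB1 line and 50 in the vector line (log2 -1.05, adjusted p = 0.1002, from the authors' deposited table). The AP-1 genes JUN and FOSL1 were at -0.14 (adjusted p = 1) and 0.26 (adjusted p = 0.554), and RELA, a subunit of NF-kB, at 0.15 (adjusted p = 1), from the authors' deposited table. The repressor ZBTB16 had 265 reads in the LKB1 line and 307 in the vector line, a log2 fold of -0.27 in the authors' deposited table. The median of the 13 was -0.14. Testing only genes with at least 40 reads and adjusting again gave 4 called factors, 1 higher and 3 lower.

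Of 31 genes listed as targets of miR-221 and miR-222, 4 rose and 2 fell in the authors' deposited table, beside 2.55% and 3.24% of all rows, with a median log2 fold of -0.05. Coding genes of at least 40 reads without a seed match rose in 5.92% and fell in 7.33% of cases. In GENCODE 29, 18 of the 31 had a match to the seed (ATGTAGC, sense strand) in the 3′ UTR, and 13 had the longer form with an A after it (ATGTAGCA). Of these 18, 2 rose, 2 fell and 14 passed in neither direction, and their median was -0.14. A match says only that the letters are there.

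The sites of the best-known targets and of the called genes with a match are shown from GENCODE 29 transcripts (GRCh38), 5′ to 3′ on the transcript strand, with the match in capitals.
CDKN1B site 1: tgcctctaaaagcgttggATGTAGCA
CDKN1B site 2: atatagtttttaccttttATGTAGCA
KIT site 1: atcttagtttggattcttATGTAGCA
KIT site 2: ttttttgtaaatattgaaATGTAGCA
CDKN1C site 1: cctcggctgggaccgttcATGTAGCA
SOCS3 site 1: cagtgacaatttacaggaATGTAGCA
MMP1 site 1: atttttttactatttagaATGTAGCc
SOD2 site 1: gagctgtatactgtttaaATGTAGCA
All but the MMP1 site have the A that makes the longer form, and SOD2 has a further match that is not shown. The CDKN1B sites begin at bases 201 and 274 of its 3′ UTR, on chromosome 12, and the CDKN1C site at base 86 of its 3′ UTR, on chromosome 11.

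The cell cycle inhibitor CDKN1B (p27), which has a pair of these sites, had 220 reads in the LKB1 line and 241 in the vector line, with a log2 fold of -0.19 and an adjusted p of 1 in the authors' deposited table. The related inhibitor CDKN1C (p57) had 144 reads in the LKB1 line and 37 in the vector line and rose by 1.90 on the log2 scale (adjusted p = 3.74e-07, from the authors' deposited table). CDKN1C was higher in the line in which MIR221 and MIR222 were higher. The receptor gene KIT was hardly expressed, with 1 read in the LKB1 line and 6 in the vector line, so a difference was not detectable at this depth. SOCS3, a feedback inhibitor of cytokine signalling, had 257 reads in the LKB1 line and 373 in the vector line (log2 -0.59, adjusted p = 0.0457, from the authors' deposited table). The collagenase gene MMP1 had 4 reads in the LKB1 line and 411 in the vector line (log2 -6.65 in the authors' deposited table). The mitochondrial superoxide dismutase SOD2 was at 0.53 (adjusted p = 0.00938, from the authors' deposited table).

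Without a seed match, TIMP2, a metalloprotease inhibitor, had a log2 fold of 0.57 (adjusted p = 0.00166, from the authors' deposited table). The related inhibitor TIMP3, with a match, was at -0.15 (adjusted p = 1, from the authors' deposited table), and the pro-apoptotic BBC3, also with a match, had 107 reads in the LKB1 line and 100 in the vector line. Testing only genes with at least 40 reads and adjusting again gave 10 called targets, 5 in each direction, and assuming a coefficient of variation of 0.3 gave 2.

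**Figure D4:**
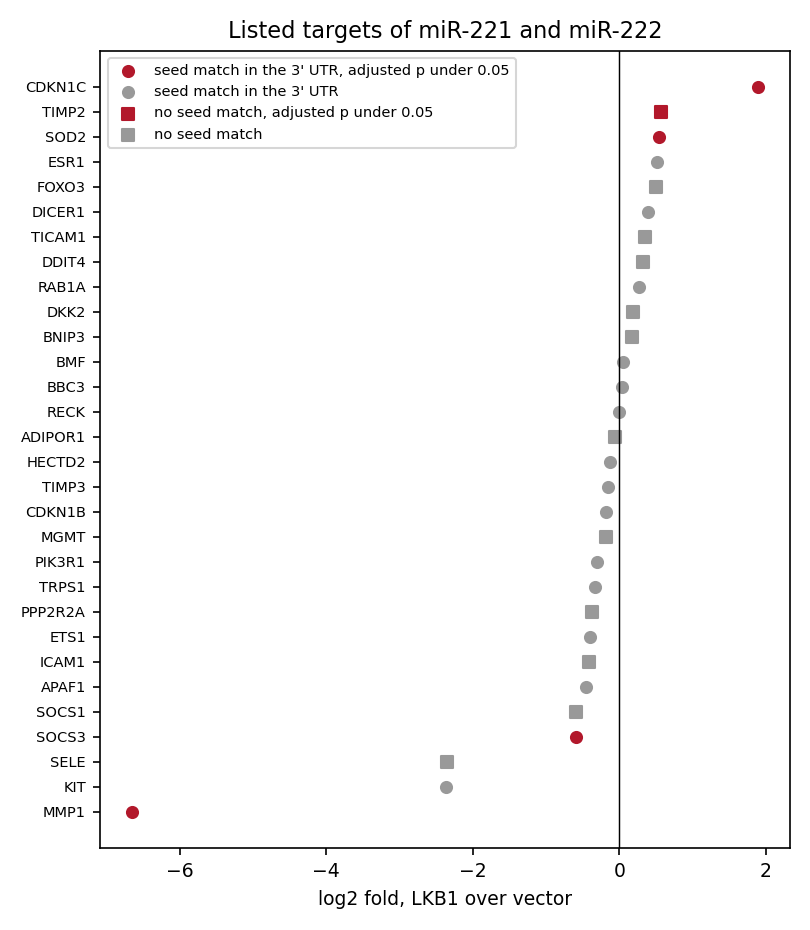
Log2 fold of LKB1 over vector for 30 of the listed targets; circles have a seed match in the 3′ UTR, squares have none, and red marks an adjusted p under 0.05. Of the 5 called genes shown 3 lie above 0 and 2 below, and most of the rest lie within 0.6 of 0.

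The same question was put to all genes. Of 12485 protein-coding rows with at least 40 reads, 12030 (96.4%) had a 3′ UTR in GENCODE 29, taken as the longest of the gene, and over all 19126 such 3′ UTRs 7.99% held ATGTAGC. The median log2 fold was 0.00 for 1140 genes with a match and -0.02 for 10890 without one. In the authors' deposited table, 6.75% of the genes with a match rose and 8.68% fell, beside 5.92% and 7.33% of those without. Genes with a match had longer 3′ UTRs, with a median of 3379 bases against 1256. Within the 3′ UTRs over 2206 bases the medians were 0.02 with a match (820 genes) and 0.02 without (3190 genes). Between 821 and 2206 bases they were -0.07 (251 genes) and -0.01 (3753 genes), and at 821 bases or fewer -0.10 (69 genes) and -0.07 (3947 genes). Above 2206 bases, 8.90% with ATGTAGC fell beside 8.03% without, and 7.56% rose beside 7.62%. Between 821 and 2206 bases, 7.17% fell beside 7.14%, and 5.18% rose beside 5.57%. At 821 bases or fewer, 11.6% (8 genes) fell beside 6.94%, and 2.90% (2 genes) rose beside 4.89%.

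For the longer form ATGTAGCA, which contains the shorter, the median was -0.01 over 470 genes with it and -0.02 over 11560 without it. Of those with it 10.9% fell in the authors' deposited table, beside 7.32% of those without, and 7.66% rose, beside 5.93%. At a depth of at least 200 reads the shares that fell were 7.44% with it and 6.03% without, and the shares that rose were 8.21% with it and 6.22% without. Between 821 and 2206 bases of 3′ UTR the medians were -0.09 with ATGTAGCA (89 genes) and -0.01 without (3915 genes). Above 2206 bases they were 0.01 with it (354 genes) and 0.02 without (3656 genes), and at 821 bases or fewer -0.06 (27 genes) and -0.07 (3989 genes). The 26 genes with 2 or more matches of the longer form had a median of -0.13, and the 132 with 2 or more of the shorter form one of 0.00. Over all lengths, genes with ATGTAGCA thus had larger shares of calls in both directions than genes without it. Above 2206 bases, 11.3% with ATGTAGCA fell beside 7.90% without, and 7.91% rose beside 7.58%. Between 821 and 2206 bases, 10.1% fell beside 7.08%, and 6.74% rose beside 5.52%. At 821 bases or fewer, 7.41% fell beside 7.02%, and 7.41% rose beside 4.84%.

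**Figure D5:**
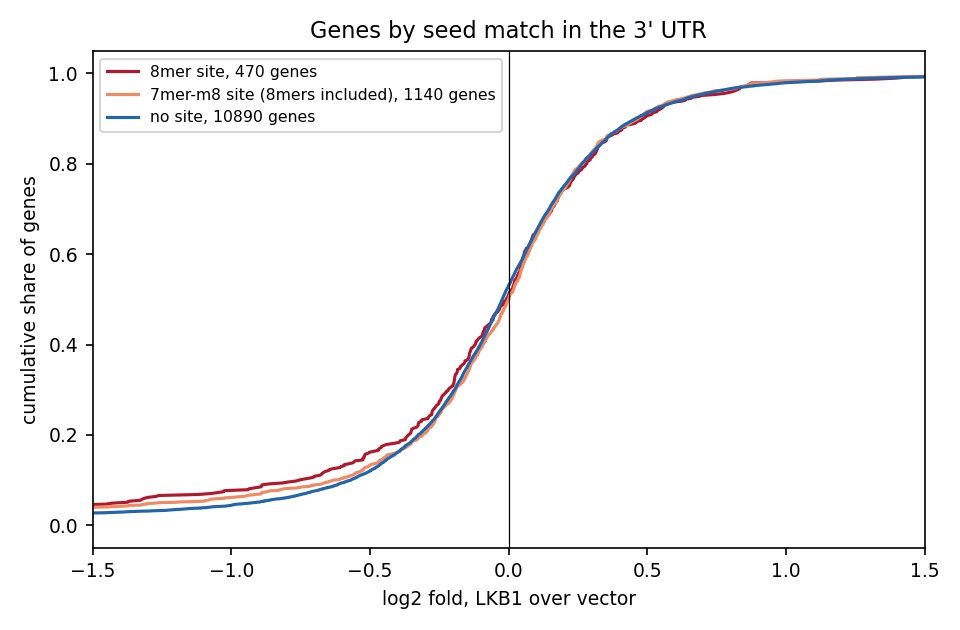
Cumulative share of protein-coding genes with at least 40 reads by log2 fold of LKB1 over vector, for 470 genes with ATGTAGCA, 1140 with ATGTAGC and 10890 with neither in the 3′ UTR. The curves lie close together near 0, and that of genes with ATGTAGCA lies a little higher below -0.5; 10.9% of these genes fell and 7.66% rose.

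Markers of endothelium and smooth muscle, cell types known for high miR-221 and miR-222, did not rise with the pair. In the authors' deposited table, 2.55% of all rows rose and 3.24% fell. Of the 10911 rows of other chromosomes with at least 200 reads, 614 rose and 634 fell. Of the 6 measured endothelial markers, 6 fell and 0 rose there (6 and 0 also at an unadjusted p under 0.05). In sum these markers had 271 reads in the LKB1 line and 1916 in the vector line. None was at 0. ESAM had 129 reads in the LKB1 line and 1197 in the vector line, VWF had 25 in the LKB1 line and 203 in the vector line, and ENG had 22 in the LKB1 line and 172 in the vector line. CDH5 had 18 reads in the LKB1 line and 121 in the vector line, KDR had 73 in the LKB1 line and 170 in the vector line, and TEK had 4 in the LKB1 line and 53 in the vector line. The smooth muscle markers ACTA2 and MYH11 had 69 reads in the LKB1 line and 81 in the vector line in sum, and neither passed the test. MIR126, a microRNA known from endothelial cells, had 27 reads in the LKB1 line and 0 in the vector line, inside EGFL7, which had 336 reads in the LKB1 line and 225 in the vector line. Of 3 leukocyte markers CD14 rose and LCP1 fell, of 3 fibroblast markers COL1A1 and COL3A1 fell, of 5 luminal markers 0 passed, and ALB and ADIPOQ had at most 1 read in a line. The part of these markers in the difference of the pair was not tested.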

How the data were processed

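RNA-seq of 4 libraries was compared, 2 of the LKB1 line and 2 of the vector line. Per the file headers, the authors deposited 4 columns for each of 34675 genes: the fold as a ratio, the log2 of that ratio, the p-value, and this p-value after adjustment. Values of single libraries were not analysed here. TopHat2 2.0.6, edgeR 2.6.0, CASAVA 1.8.2 and the build hg19 appear in the submitters' processing notes without their roles. Not given in the sources used here are the counting, its use of strand and any filter. The adjusted p equalled a Benjamini-Hochberg adjustment over all genes to within 1.89e-06 and was called under 0.05.

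Read totals were recovered from the fold column with prior counts of 0.254868 (LKB1) and 0.245132 (vector), which gave whole totals of up to 4000 for 97.8% of the 28242 genes that had reads, at a relative tolerance of 6e-10; altered constants resolved 0.428%. High totals can be ambiguous, and unresolved genes were taken as deeper than 200 reads. The recovery and the exact test were tested on simulated data. Intervals and floors (3 reads) cover counting error. Seed matches were sought in GENCODE 29 with Python 3.11.15, and hairpins folded with RNAfold 2.7.2.

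The members and the lists were chosen with earlier results of these data known. Named were the pair, rows within 100 kb, up to 5 called genes of each list and direction, the 4 other microRNA genes of largest fold in each direction with at least 40 reads, partners in clusters, and the 3 rows of nearest fold (1 called gene of the lists is not reported here); other genes of the lists and MIRLET7B, MIR3687, MIR663A, MIR3648, MIR140, SMC4, WWP2 and MIR126 were named after their values were seen. The p-values set the difference between the lines against a spread of libraries within a line, and that spread may be technical.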

Additional observations from a re-analysis of the deposited data

How the results depend on the processing

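No paired analysis was possible because the table holds 1 comparison with no value per library; for the same reason no library could be left out. The log2 fold of MIR221 lay between 6.33 and 7.06 and that of MIR222 between 4.22 and 4.50 with no prior count, a prior count of 2 reads or another centring. In 18 of 26 alternatives the value stayed within 1.5 times the reported count, or within the counting interval or spread of the reported value. With only genes of at least 40 reads and the p-value adjusted again, 19 other microRNA genes were called in place of 35, since most have fewer reads, 10 targets in place of 6 and 4 transcription factors in place of 1. With an adjusted p under 0.01, 1 processing gene was called in place of 3. With a coefficient of variation of 0.3 assumed for every gene, chosen after seeing the data, 474 of all genes were called in place of 2007, 2 targets, 0 neighbours (4 at an unadjusted p under 0.05) and 0 processing genes (0 at an unadjusted p under 0.05) by the exact test, while 27 other microRNA genes, all higher in the LKB1 line, were called. The difference in median log2 fold between genes with and without a seed match was 0.02 as reported, 0.01 for ATGTAGCA alone and 0.03 with at least 200 reads. Within 3′ UTRs of 821 to 2206 bases, and of 821 bases or fewer, the median with ATGTAGC was the lower one. Above 2206 bases it was 0.0218 with ATGTAGC beside 0.0225 without. With 3 and 9 reads in the vector line, depth limits both ratios of the pair.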
